A study of Mus musculus with 19 samples.

Results

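Interferon-stimulated genes were followed in bulk RNA-seq of 19 mouse livers. The 36 genes were picked by symbol from the 55836 genes of the count table. They comprised 7 sensors and transcription factors, 10 genes of the IFIT and OAS families, 13 genes of the ISG15 system and other antiviral effectors, and 6 interferon-inducible GTPases. All 36 were present, and all 36 were among the 13597 genes that passed the filter on low counts. The livers came from male WT C57BL/6 mice that were 8 weeks old at the start and received their diet and a daily gavage for 8 weeks. CD + Veh (n = 4) and CD + PE (n = 5) were fed the control diet (CD, labelled chow, 10% of energy as fat). MD + Veh (n = 5) and MD + PE (n = 5) were fed the diet that brings on metabolic dysfunction-associated steatohepatitis (MASH diet, MD, with 40% of energy as fat, 20% as fructose and 2% cholesterol). CD + PE and MD + PE were gavaged with 2 mg of polyethylene microplastics (PE) per mouse and day, and CD + Veh and MD + Veh with the vehicle, 0.1% Tween 20 in water, alone. Each library came from 1 mouse, and all carry the same batch label.

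Type I and type III interferons bind their receptors and activate a complex of transcription factors, STAT2 and IRF9 among them, that binds the interferon-stimulated response element (ISRE) in promoters. Interferon gamma, made mainly by T and NK cells, acts through the gamma-activated site (GAS) in promoters and induces IRF1, the GTPases and chemokines such as Cxcl9. In the liver, hepatocytes, Kupffer cells (the resident macrophages) and endothelial cells all carry interferon receptors and hold many of these genes ready at a low level.

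The promoters of members on which the results turn are shown to give the sequence context of these genes, from RefSeq, 250 bases before to 50 after the transcription start, on the strand of the gene. Capitals mark matches to the core of an ISRE (GAAA, any 2 bases, GAAA) and to a GAS (TTC, any 3 bases, GAA), searched on both strands, so that the first on the other strand reads TTTC, any 2 bases, TTTC. Adjacent matches can overlap, as in Isg15 and Irgm1, and then form 1 run of capitals. The windows were placed on GRCm39 by an exact match of the sequence, and each had 1 match on its chromosome.
Igtp: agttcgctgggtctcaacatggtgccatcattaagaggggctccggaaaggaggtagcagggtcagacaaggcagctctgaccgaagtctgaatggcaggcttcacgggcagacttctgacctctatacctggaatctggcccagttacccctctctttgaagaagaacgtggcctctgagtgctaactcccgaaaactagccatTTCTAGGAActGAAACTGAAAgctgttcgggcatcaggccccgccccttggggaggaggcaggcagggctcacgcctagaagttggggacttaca
Irgm1: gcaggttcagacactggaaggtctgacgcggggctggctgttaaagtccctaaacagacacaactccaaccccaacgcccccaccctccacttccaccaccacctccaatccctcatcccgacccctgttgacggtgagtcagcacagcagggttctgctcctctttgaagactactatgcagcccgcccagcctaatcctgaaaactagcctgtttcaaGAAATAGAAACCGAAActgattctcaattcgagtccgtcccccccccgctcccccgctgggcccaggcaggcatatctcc
Gbp7: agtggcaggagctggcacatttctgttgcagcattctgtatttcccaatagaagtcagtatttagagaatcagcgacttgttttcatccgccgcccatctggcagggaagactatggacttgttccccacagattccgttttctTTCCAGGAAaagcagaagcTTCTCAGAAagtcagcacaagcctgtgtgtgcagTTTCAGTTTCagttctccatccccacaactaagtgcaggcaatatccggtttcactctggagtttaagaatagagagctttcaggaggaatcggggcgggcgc
Rsad2: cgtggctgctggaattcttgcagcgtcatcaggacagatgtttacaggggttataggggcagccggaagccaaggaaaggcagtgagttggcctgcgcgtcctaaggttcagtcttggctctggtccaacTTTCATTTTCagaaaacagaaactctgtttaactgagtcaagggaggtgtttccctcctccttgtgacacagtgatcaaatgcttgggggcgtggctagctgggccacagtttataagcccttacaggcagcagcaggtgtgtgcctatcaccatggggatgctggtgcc
Isg15: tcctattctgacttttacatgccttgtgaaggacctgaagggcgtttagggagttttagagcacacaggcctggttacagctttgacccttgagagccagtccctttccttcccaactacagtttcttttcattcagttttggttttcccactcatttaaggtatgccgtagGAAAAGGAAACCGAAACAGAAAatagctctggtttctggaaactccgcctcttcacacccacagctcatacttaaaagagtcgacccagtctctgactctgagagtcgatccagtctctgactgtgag
Irf1: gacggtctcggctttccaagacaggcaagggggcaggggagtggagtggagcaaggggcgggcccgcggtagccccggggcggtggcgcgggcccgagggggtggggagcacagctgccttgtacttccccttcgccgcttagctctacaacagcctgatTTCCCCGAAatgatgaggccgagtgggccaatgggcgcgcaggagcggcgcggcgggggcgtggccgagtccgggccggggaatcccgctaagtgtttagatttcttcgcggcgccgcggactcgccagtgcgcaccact
Stat2: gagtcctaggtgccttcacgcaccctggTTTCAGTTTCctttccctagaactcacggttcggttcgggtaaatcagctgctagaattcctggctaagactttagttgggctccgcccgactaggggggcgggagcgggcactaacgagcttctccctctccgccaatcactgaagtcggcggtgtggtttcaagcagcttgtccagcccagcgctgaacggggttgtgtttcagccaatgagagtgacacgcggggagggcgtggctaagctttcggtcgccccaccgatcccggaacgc
These windows lie at chr11:58090132-58090431, plus strand (Igtp), chr11:48762198-48762497, minus strand (Irgm1), chr3:142235847-142236146, plus strand (Gbp7), chr12:26506402-26506701, minus strand (Rsad2), chr4:156285226-156285525, minus strand (Isg15), chr11:53660591-53660890, plus strand (Irf1) and chr10:128106117-128106416, plus strand (Stat2). In Igtp the GAS match TTCTAGGAA began 45 bases before the start and the ISRE match GAAACTGAAA 34 bases before it. Gbp7 held GAS matches 106 and 87 bases and an ISRE match 53 bases before its start. Irf1 held a GAS match, TTCCCCGAA, 90 bases before its start and no ISRE match. The RefSeq table (build GRCm38.p6) gave windows for 25 of the 36 members, and a gene with more than 1 start was counted once if any of its windows matched. The ISRE core was found in 17 of 25 (68.0%) against 3.99% of 27025 genes with a window, the GAS in 6 of 25 (24%) against 9.55%, and both in 4 of 25 (16%) against 0.614%. The 5 GTPases with a window (Gbp2, Gbp3, Gbp7, Igtp and Irgm1) all held the ISRE core. A match is a description of the letters and does not show that a factor was bound.

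The total of counts assigned to genes ran from 10398820 to 15456729 per library and was lower in PE than in vehicle libraries. Levels are given as CPM, counts scaled to a common library size with the trimmed mean of M-values (TMM), so that 1 CPM stood for about 10 to 16 counts. In 1 library, CD + PE replicate 2, the interferon-stimulated genes stood apart. It held the highest CPM of the 19 libraries for 29 of the 36 members (80.6%), against 8.05% of all genes tested. It also lay above the median of the other 4 CD + PE libraries for all 36. Against that median, with 0.1 CPM added to both, the median ratio of the members was 1.93, against 0.982 over all genes tested. For 16 of the 36 members the ratio was above 2, against 6.27% of all genes tested. In each of the other 18 libraries the same median ratio, taken against the other libraries of its group, lay between 0.821 and 1.20. No label marks this library, so in the comparisons that hold CD + PE the edgeR calls, medians and most genes discussed are given with and without it. DESeq2 was run on all 19 libraries only.

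**Figure D1:**
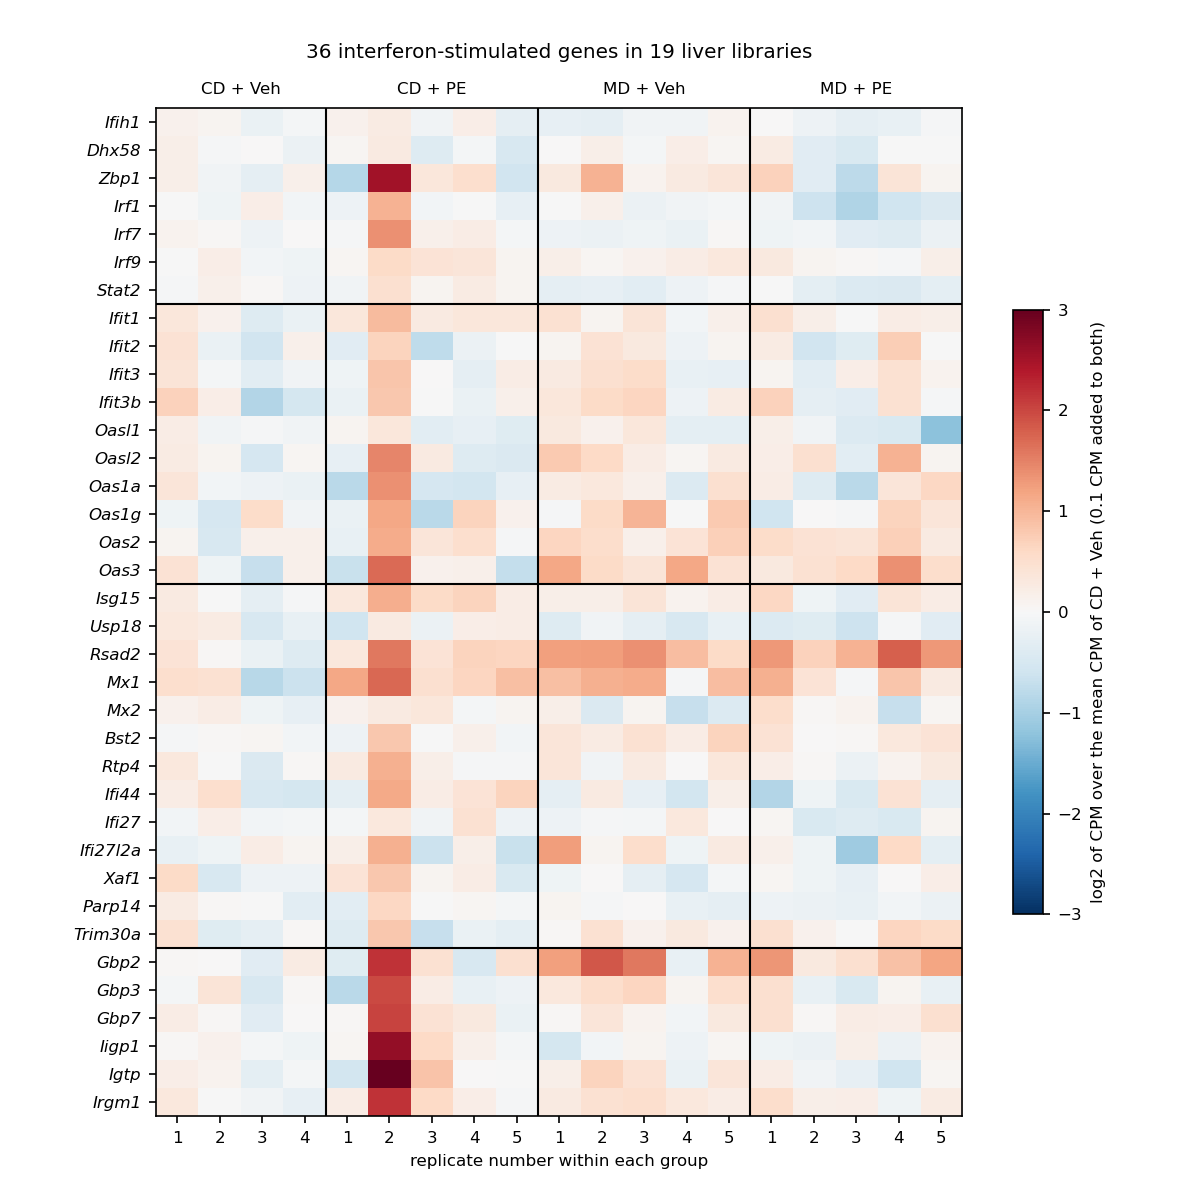
Level of the 36 interferon-stimulated genes (rows, in 4 blocks by role from sensors and transcription factors at the top to GTPases at the bottom) in the 19 libraries (columns, by group and replicate number), as log2 of CPM over the mean of CD + Veh. CD + PE replicate 2 is red in nearly every row and darkest in the 6 GTPases and Zbp1, and the rows of Rsad2 and Gbp2 are red in most MD libraries.

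The GTPases stood furthest off in that library. They are cytosolic enzymes of a pair of families, the immunity-related GTPases (Iigp1, Igtp, Irgm1) and the guanylate-binding proteins (Gbp2, Gbp3, Gbp7), that gather on the vacuoles of intracellular pathogens. Per kilobase of the canonical transcript, Iigp1 had 101 CPM per kb in CD + Veh, Irgm1 17.1, Igtp 12.4, Gbp7 3.11, Gbp3 3.03 and Gbp2 1.56. Igtp (chr11:58089840-58098417 on GRCm39), which encodes an immunity-related GTPase of the endoplasmic reticulum, stood at 32.5, 30.4, 23.3 and 27.5 CPM in CD + Veh, 19.4, 268, 51.9, 28.6 and 28.3 CPM in CD + PE, 32.1, 45.2, 38.3, 24.6 and 36.5 CPM in MD + Veh, and 32.9, 26.3, 23.99, 18.7 and 29.8 CPM in MD + PE. The 268 CPM of CD + PE replicate 2 was 9.39 times the median of the other 4 CD + PE libraries, whereas those 4 overlapped with all other groups. Iigp1, which loads onto parasite vacuoles, measured 315, 337, 296 and 281 CPM in CD + Veh, 318, 1920.3, 464, 342 and 295 CPM in CD + PE, 212, 289.8, 323, 274 and 320.3 CPM in MD + Veh, and 282, 272, 348, 271 and 329 CPM in MD + PE. Again replicate 2 was 5.82 times the median of the rest of its group, and the next library of all, CD + PE replicate 3, reached 464 CPM.

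Irgm1 (chr11:48752795-48763164), a regulator of the other immunity-related GTPases and of autophagy, measured 44.3, 35.1, 33.1 and 30.1 CPM in CD + Veh, 41.4, 160.0, 54.2, 41.1 and 34.7 CPM in CD + PE, 43.4, 48.6, 50.7, 44.1 and 41.9 CPM in MD + Veh, and 51.4, 40.3, 40.9, 32.3 and 42.1 CPM in MD + PE. The guanylate-binding proteins followed the same library, with 20.4, 18.1, 13.9 and 17.8 CPM in CD + Veh, 17.9, 72.2, 23.7, 21.5 and 15.3 CPM in CD + PE, 17.9, 22.8, 18.8, 16.6 and 21.6 CPM in MD + Veh, and 24.4, 18.02, 20.4, 20.05 and 24.4 CPM in MD + PE for Gbp7. Gbp3 stood at 7.96, 10.96, 5.91 and 8.55 CPM in CD + Veh, 4.73, 33.4, 9.80, 7.13 and 7.51 CPM in CD + PE, 10.3, 12.1, 13.1, 8.90 and 11.8 CPM in MD + Veh, and 11.7, 7.16, 6.09, 8.86 and 7.18 CPM in MD + PE. In both genes CD + PE replicate 2 was above every other library, by 3.65 times the median of its group for Gbp7 and 4.52 times for Gbp3, and the remaining libraries of all groups overlapped. Gbp2 measured 4.04, 4.01, 3.09 and 4.71 CPM in CD + Veh, 3.07, 18.2, 5.47, 2.81 and 5.53 CPM in CD + PE, 9.44, 14.6, 12.001, 3.41 and 8.27 CPM in MD + Veh, and 10.2, 4.88, 5.56, 7.35 and 9.07 CPM in MD + PE. For this gene CD + PE replicate 2 was 4.17 times the median of its group. The values of 4 of 5 MD + Veh libraries and all 5 MD + PE libraries also lay above the 4 CD + Veh libraries.

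**Figure D2:**
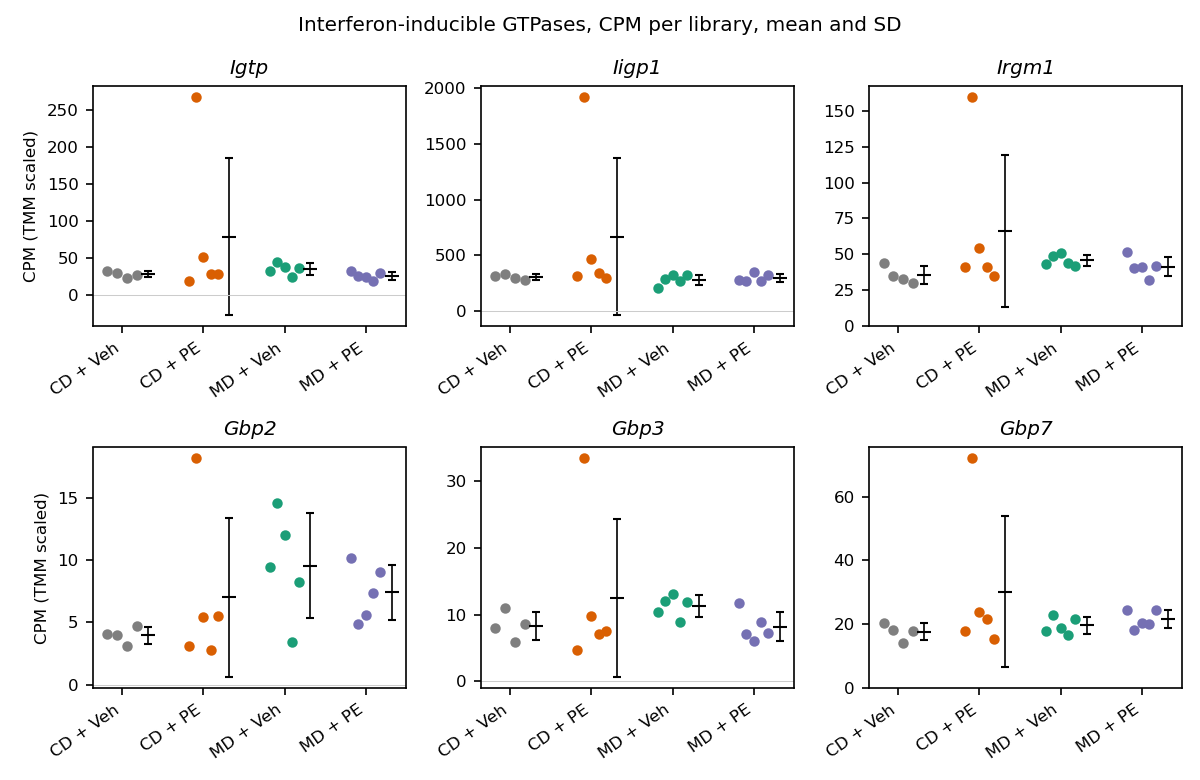
CPM of the 6 GTPases per library (points, coloured by group), with the mean and SD of each group beside the points (n = 4 for CD + Veh, n = 5 for the others). In CD + PE 1 point, replicate 2, sets the mean and the SD in every panel, from 18.2 CPM of Gbp2 to 1920.3 CPM of Iigp1, and the SD bar reaches below 0 for Igtp and Iigp1.

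The excess in that library was larger in the GTPases than in the other roles. The median ratio to the other 4 CD + PE libraries was 4.35 over the 6 GTPases, 1.91 over the 10 IFIT and OAS genes, 1.76 over the 13 genes of the ISG15 system and other effectors, and 1.41 over the 7 sensors and transcription factors. Among the last, Zbp1, the sensor of Z-form nucleic acids that can trigger necroptosis, stood furthest off at 5.89 times, with 4.54, 3.72, 3.29 and 4.45 CPM in CD + Veh, 2.16, 23.4, 5.12, 5.72 and 2.67 CPM in CD + PE, 4.94, 8.36, 4.30, 4.88 and 5.18 CPM in MD + Veh, and 6.50, 3.12, 2.26, 5.29 and 4.22 CPM in MD + PE. It was low in all groups apart from that library, and all groups overlapped. The 7 members not highest in CD + PE replicate 2 were Ifit2, Oasl1, Usp18, Rsad2, Mx2, Ifi27 and Ifi27l2a.

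Among genes of the wider pathway (122 genes in 5 lists, 93 of them tested, none a member), other interferon-stimulated genes shared the pattern. Of 64 tested, 48 were highest of the 19 libraries in CD + PE replicate 2, with a median ratio of 1.94. The T-cell-specific GTPase gene Tgtp1 measured 3.15, 231, 26.04, 8.64 and 5.24 CPM in CD + PE. The 21 interferon genes themselves were all below the filter on low counts, and Ifng was counted 0 to 2 times per library, with 1 count in CD + PE replicate 2. The receptors as a set did not stand apart there, with a median ratio of 1.01 over 5 tested (Ifnar1, Ifnar2, Ifngr1, Ifngr2 and Il10rb). Ifngr1 was nevertheless at 1.61 times and highest of the 19 libraries there, and Il10rb was at 1.54 times.

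Markers of macrophages moved with the interferon-stimulated genes in this library. All 12 Kupffer cell and macrophage markers (Clec4f, Vsig4, Timd4, Cd5l, Adgre1, Csf1r, Marco, Cd68, C1qa, C1qb, C1qc and Folr2) were highest of the 19 libraries in CD + PE replicate 2, at a median of 4.67 times the other 4 CD + PE libraries. Their summed level was 999.98 CPM, against 138.7 to 195.6 CPM in the other CD + PE libraries, 168.6 to 292 in CD + Veh, 358 to 503 in MD + Veh and 269 to 470.001 CPM in MD + PE. None of the 12 was at 0 in any library. Marco, a scavenger receptor of macrophages, had 256 CPM there and 2.57 to 19.9 CPM in the rest of its group. The 8 hepatocyte markers summed to 69869 CPM in replicate 2, the lowest of the CD + PE libraries, and none was at 0 in any CD + PE library. The 12 T and NK cell markers summed to 12.5 CPM, against 4.94 to 6.33 CPM in the other CD + PE libraries. In whole liver, a change in the number of cells of a type and a change in RNA per cell cannot be told apart, and the part of these cells in the interferon-stimulated genes was not tested. In MD + Veh, where the macrophage sum was also above CD + Veh, the GTPase sum was 325 to 456 CPM against 369.8 to 436 CPM. Iigp1, the largest part of that sum, had a mean of 284 CPM in MD + Veh against 307 CPM in CD + Veh. The means of the other GTPases were higher in MD + Veh. They were 35.3 against 28.4 CPM for Igtp, 45.8 against 35.7 for Irgm1 and 9.55 against 3.96 for Gbp2. For Gbp3 they were 11.2 against 8.34 CPM and for Gbp7 19.6 against 17.6 CPM.

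**Figure D3:**
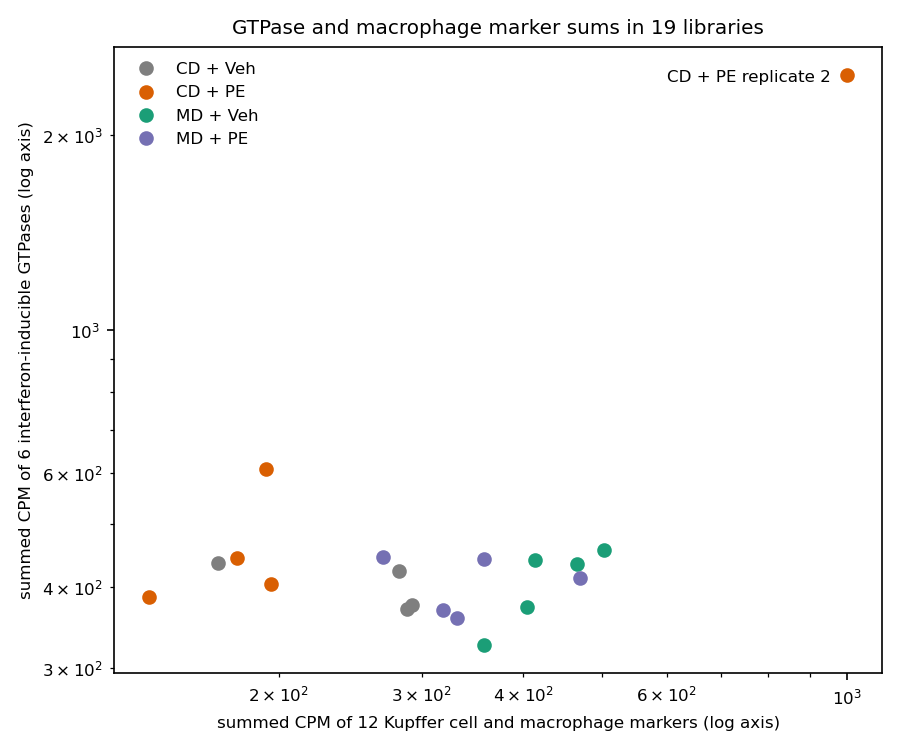
Summed CPM of the 6 GTPases (vertical, log axis) against that of the 12 Kupffer cell and macrophage markers (horizontal, log axis) in each of the 19 libraries, coloured by group. CD + PE replicate 2 lies at 999.98 CPM of markers and 2472 CPM of GTPases, and the other 18 libraries span 138.7 to 503 CPM of markers and 325 to 609 CPM of GTPases.

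The first comparison asked what PE gavage did on the control diet. Between CD + PE and CD + Veh 0 of 36 members were called, with a call needing an adjusted p under 0.05 together with a log2 fold change of 0.38 or more in either direction (edgeR's quasi-likelihood test, Benjamini-Hochberg adjustment). Of all genes tested 2.92% were called, 1.22% higher and 1.7% lower. The fold changes leaned one way all the same: 32 of 36 were positive, with a median log2 fold change of 0.33 against 0.0064 over all genes. An unadjusted p under 0.05 was found for 9. Such counts are given here and below without the share over all genes, and are not read as results about the members. DESeq2 called 2 members, Isg15 and Rsad2, both higher, and 524 of the 26185 genes with a fold change (2.0%). Those 26185 include genes left without an adjusted p, Ifi27l2a among them, which could not be called. That share is therefore not comparable with the 2.92% from edgeR. DESeq2 gave 10 members an unadjusted p below 0.05. The largest log2 fold changes in edgeR were 1.48 ± 0.56 (SE, adjusted p = 0.155) for Igtp and 1.14 ± 0.38 (SE, adjusted p = 0.106) for Mx1, a gene of the dynamin-like GTPases, at 1.18, 1.15, 0.403 and 0.471 CPM in CD + Veh and 1.91, 2.89, 1.15, 1.31 and 1.58 CPM in CD + PE. Iigp1 came to 1.12 ± 0.41 (SE, adjusted p = 0.147), Irgm1 to 0.89 ± 0.33 (SE, adjusted p = 0.143) and Zbp1 to 0.97 ± 0.51 (SE, adjusted p = 0.351).

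Without CD + PE replicate 2 that lean was smaller. The median log2 fold change of the 36 was then 0.040, with 20 positive and 0 called, and 5 had an unadjusted p below 0.05 (Irf9, Ifit1, Isg15, Rsad2 and Mx1). Igtp went from 1.48 to 0.17 (adjusted p = 0.771), Iigp1 from 1.12 to 0.21 (adjusted p = 0.479), and Gbp7 from 0.78 to 0.16 (adjusted p = 0.628). Gbp3 and Zbp1 went from positive to negative values, from 0.59 and 0.97 to -0.19 (adjusted p = 0.719) and -0.035 (adjusted p = 0.973). Isg15, Rsad2 and Mx1 moved less, from 0.62, 0.81 and 1.14 to 0.46, 0.52 and 0.89, none past the threshold. The 12 macrophage markers were then negative in all 12 cases, with a median of -0.56 and 1 of them called lower.

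**Figure D4:**
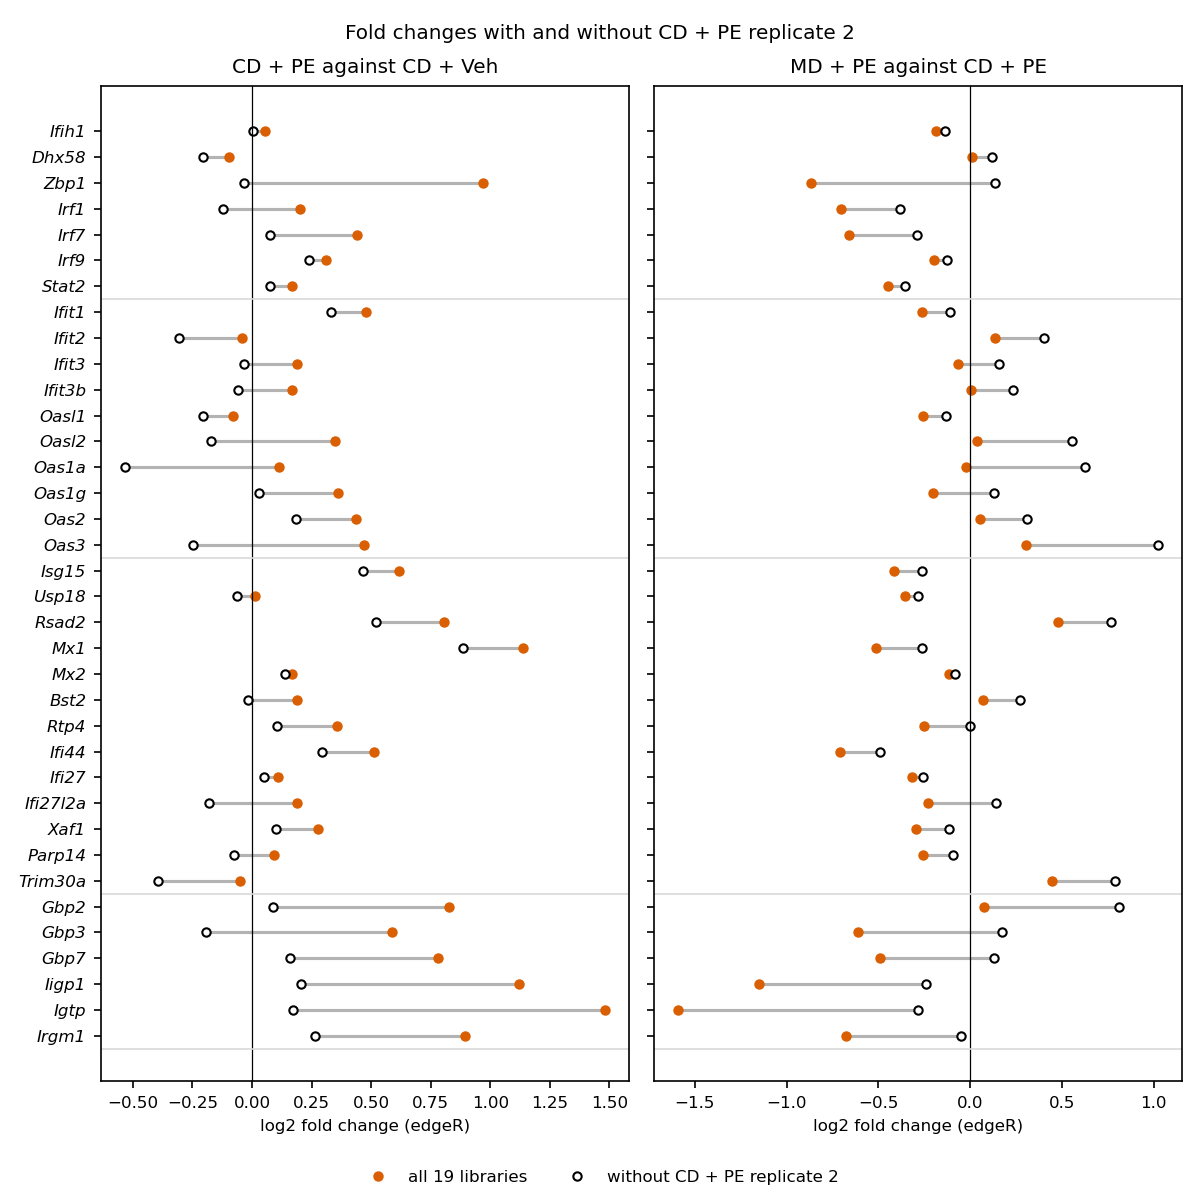
Log2 fold change of the 36 genes from edgeR over all 19 libraries (filled points) and without CD + PE replicate 2 (open points), for CD + PE against CD + Veh (left) and MD + PE against CD + PE (right), with roles separated by grey lines. On the left, leaving out the library moves the GTPases and Zbp1 toward 0 or past it, with Igtp going from 1.48 to 0.17. On the right Igtp goes from -1.59 to -0.29, whereas Gbp2 moves away from 0. The mean of Gbp2 was 7.40 CPM in MD + PE, against 7.01 CPM in CD + PE with that library and 4.22 CPM without it.

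Isg15, a ubiquitin-like protein that is conjugated to other proteins, measured 7.84, 6.45, 5.37 and 6.33 CPM in CD + Veh, 8.14, 13.9, 9.71, 10.4 and 7.61 CPM in CD + PE, 7.35, 7.37, 8.59, 6.97 and 7.65 CPM in MD + Veh, and 10.1, 5.98, 5.13, 8.58 and 7.54 CPM in MD + PE. In CD + PE 4 of 5 libraries lay above all CD + Veh libraries, with replicate 2 highest at 13.9 CPM. Replicate 5 at 7.61 CPM lay within the CD + Veh range. Its log2 fold change was 0.62 ± 0.19 (SE, adjusted p = 0.0779) in edgeR. The window of Isg15 shown above held 3 overlapping ISRE matches, 78, 72 and 66 bases before the start. Ifit1, which binds viral RNA caps, was at 8.96, 7.66, 5.37 and 6.13 CPM in CD + Veh, 8.97, 13.7, 8.48, 8.94 and 8.99 CPM in CD + PE, 9.70, 7.50, 9.21, 6.66 and 7.88 CPM in MD + Veh, and 9.83, 7.99996, 6.95, 8.24 and 7.90 CPM in MD + PE. All 4 groups overlapped, and CD + PE replicate 2 was the highest library. Its log2 fold change came to 0.48 ± 0.17 (SE, adjusted p = 0.128), and without CD + PE replicate 2 to 0.33 (adjusted p = 0.271). Irf9, the DNA-binding subunit of the complex with STAT2, came to 0.31 ± 0.10 (SE, adjusted p = 0.102) from 29.02 ± 3.05 CPM (SD, n = 4) and 36.04 ± 5.46 CPM (SD, n = 5), and to 0.24 (adjusted p = 0.203) without that library.

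In the wider pathway 4 of the 93 genes tested were called in this comparison, beside 2.92% of all genes. Cmpk2, a mitochondrial nucleotide kinase whose gene neighbours Rsad2, was higher at 1.09 ± 0.30 (SE, adjusted p = 0.0496), though not without CD + PE replicate 2, at 0.67 (adjusted p = 0.103). Ifi203, of the DNA-binding p200 family, was higher with that library and without it, at 0.79 ± 0.17 (SE, adjusted p = 0.0151) and 0.60 (adjusted p = 0.024). Ifitm3, which restricts viral entry, was lower at -0.43 ± 0.10 (SE, adjusted p = 0.0193), and at -0.52 (adjusted p = 0.00369) without the library. Irf2, which represses interferon-stimulated promoters, was lower at -0.48 ± 0.10 (SE, adjusted p = 0.00981) and -0.41 (adjusted p = 0.0195). Without the library Ifi35 was called as well, lower at -0.45 (adjusted p = 0.0315). Ifnar2, a chain of the type I interferon receptor, measured 55.97, 51.1, 62.7 and 63.1 CPM in CD + Veh and 69.5, 67.98, 71.95, 70.7 and 71.8 CPM in CD + PE. Its groups did not overlap, as was so for 3.49% of all genes tested that were higher in every CD + PE library. Its adjusted p was 0.0308 (edgeR), but a log2 fold change of 0.27 stayed under the limit of 0.38. Without CD + PE replicate 2 it was 0.29 (adjusted p = 0.0365).

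The diet comparison with vehicle alone, which shares the CD + Veh libraries with the one above, MD + Veh against CD + Veh, gave 1 called member, Rsad2, which was higher. Of all genes 10.4% were called, 4.74% higher and 5.63% lower. Rsad2 (chr12:26492745-26506451) encodes viperin, a radical enzyme of the endoplasmic reticulum and lipid droplets that makes a chain-terminating nucleotide. It measured 8.15, 6.23, 5.30 and 4.58 CPM in CD + Veh, 7.56, 18.2, 8.12, 9.64 and 9.58 CPM in CD + PE, 14.5, 14.6, 15.96, 11.5 and 9.04 CPM in MD + Veh, and 15.03, 9.85, 12.5, 21.4 and 15.2 CPM in MD + PE. All 5 MD + Veh libraries lay above all 4 CD + Veh libraries, and all 5 MD + PE libraries did too. The log2 fold change was 1.11 ± 0.26 (SE, adjusted p = 0.00757) in edgeR, and 1.11 without CD + PE replicate 2. Of the 36 members 26 were positive, with a median of 0.20 against -0.0042 over all genes. Both edgeR and DESeq2 each gave 5 an unadjusted p below 0.05.

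Bst2 (tetherin, which holds budding virus at the cell surface) was the other member whose groups did not overlap. It stood at 137, 145, 147 and 134 CPM in CD + Veh, 127, 245, 141, 157 and 133 CPM in CD + PE, 180.2, 168, 192, 164 and 223 CPM in MD + Veh, and 192, 142, 144, 176 and 187 CPM in MD + PE. Its MD + Veh libraries began at 164 CPM and its CD + Veh libraries ended at 147 CPM. The 2 such members, 5.56% of 36, compare with 7.37% of all genes tested that were higher in every MD + Veh library. Bst2 missed the threshold at 0.40 ± 0.16 (SE, adjusted p = 0.0974), and passed it at 0.40 (adjusted p = 0.0133) when CD + PE replicate 2 was left out of the shared estimate of spread. Gbp2 behaved alike, at 1.27 ± 0.46 (SE, adjusted p = 0.0735) and 1.27 (adjusted p = 0.0129). MD + Veh replicate 4, at 3.41 CPM, was the library of its group that lay among the CD + Veh values. All 10 IFIT and OAS genes were positive and none was called, from 0.064 for Oasl1 to 0.85 for Oas3.

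In the wider pathway 8 of 93 genes were called in MD + Veh against CD + Veh, 4 higher and 4 lower, beside 10.4% of all genes. Cxcl9, a T cell attractant induced by interferon gamma, was higher at 1.92 ± 0.59 (SE, adjusted p = 0.0351), with 25.4, 52.96, 54.7, 13.8 and 67.1 CPM in MD + Veh against 11.3, 11.96, 9.06 and 12.999 CPM in CD + Veh. Cmpk2 was higher at 0.94 ± 0.30 (SE, adjusted p = 0.042), Tor3a at 1.16 and Ifi207 at 0.74. Ifitm3, Irf2, Parp10 and the RNA helicase gene Mov10 were lower, at -0.58, -0.49, -0.39 and -0.39. Without CD + PE replicate 2, the guanylate-binding genes Gbp6 at 1.28 and Gbp10 at 1.67 passed the threshold in this comparison as well. Of the 64 other interferon-stimulated genes 11 were then called higher and 3 lower (Ifitm3, Mov10 and Parp10), against 4 and 3 with the library. Of all genes 839 were then called higher and 813 lower, against 644 and 766 with it. Of the 12 macrophage markers, 7 were then called higher in MD + Veh.

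**Figure D5:**
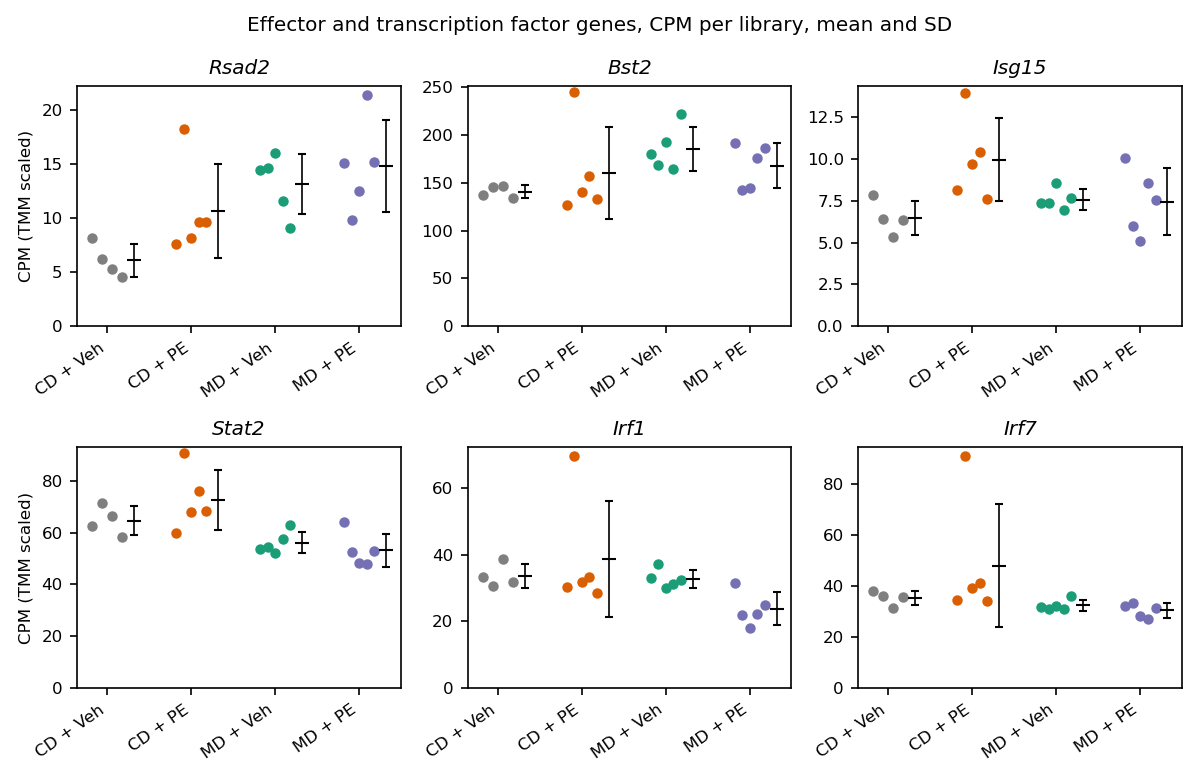
CPM of 3 effector genes (Rsad2, Bst2, Isg15) and 3 transcription factor genes (Stat2, Irf1, Irf7) per library, with the mean and SD of each group beside the points (n = 4 for CD + Veh, n = 5 for the others). Rsad2 lies between 9.04 and 21.4 CPM in the 10 MD libraries and between 4.58 and 8.15 CPM in CD + Veh, and 4 of 5 MD + PE libraries of Irf1 lie at 25.0 CPM or lower, under all libraries of the other groups.

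PE on the MASH diet, MD + PE against MD + Veh, moved no member past the threshold, and 1.08% of all genes were called, 0.147% higher and 0.934% lower. DESeq2 also called 0 members, and each tool gave 1 an unadjusted p below 0.05. Of 36 members 6 were positive and the median log2 fold change was -0.089, against -0.012 over all genes. The member with an unadjusted p below 0.05 was Irf1, the transcription factor that sustains the response to interferon gamma, with 33.4, 30.7, 38.8 and 31.7 CPM in CD + Veh, 30.3, 69.7, 31.8, 33.2 and 28.5 CPM in CD + PE, 33.1, 37.2, 29.9, 31.2 and 32.4 CPM in MD + Veh, and 31.4, 21.98, 18.1, 22.3 and 24.96 CPM in MD + PE. In MD + PE 4 of 5 libraries lay below every MD + Veh library, and replicate 1 at 31.4 CPM lay within the MD + Veh range. The log2 fold change was -0.47 ± 0.20 (SE, adjusted p = 0.261), and without CD + PE replicate 2, which is in neither group but enters the estimate of spread, it was -0.47 (adjusted p = 0.0422). In the wider pathway 1 of 93 genes was called, beside 1.08% of all genes. This was Lgals9, a galectin, lower at -0.39 ± 0.09 (SE, adjusted p = 0.028). Without CD + PE replicate 2 Ly6e was called too, lower at -0.63 (adjusted p = 0.0483). The 10 IFIT and OAS genes were all on the negative side, by at most -0.40 (Oas1g), and none passed the test.

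Between the diets under PE, MD + PE against CD + PE, 2 members were called lower, Irf1 and Stat2, where 4.61% of all genes were called (1.69% higher and 2.92% lower). The median of the 36 was -0.26 against -0.019 over all genes, 10 were positive, and 9 had an unadjusted p below 0.05 (10 in DESeq2). Stat2 (chr10:128106352-128128735), the partner of IRF9, measured 62.6, 71.4, 66.2 and 58.1 CPM in CD + Veh, 59.9, 90.7, 68.1, 76.02 and 68.2 CPM in CD + PE, 53.5, 54.5, 52.2, 57.7 and 62.7 CPM in MD + Veh, and 64.03, 52.5, 48.3, 47.996 and 52.7 CPM in MD + PE. Its MD + PE libraries reached 64.0 CPM and overlapped with CD + PE, which began at 59.9 CPM. The log2 fold change was -0.45 ± 0.10 (SE, adjusted p = 0.0107) in edgeR. For Irf1 (chr11:53660812-53669200) it was -0.71 ± 0.20 (SE, adjusted p = 0.0381). Irf7, which amplifies type I interferon production, measured 37.997, 35.8, 31.4 and 35.5 CPM in CD + Veh, 34.5, 90.8, 38.9, 40.9 and 33.9 CPM in CD + PE, 31.6, 30.9, 32.1, 30.7 and 35.8 CPM in MD + Veh, and 32.1, 33.3, 27.9, 26.7 and 31.2 CPM in MD + PE. This was the 1 member, 2.78% of 36, with every MD + PE library below every CD + PE library, against 3.96% of all genes. Its log2 fold change was -0.66 ± 0.20 (SE, adjusted p = 0.0521) in edgeR. DESeq2 called Irf1, Stat2, Irf7 and Igtp, the last 2 at -0.64 (adjusted p = 0.0275) and -1.58 (adjusted p = 0.0484). It called 796 of the 26185 genes with a fold change (3.04%), a share not comparable with that from edgeR. A stricter filter on low counts also gave Irf7 a call (adjusted p = 0.0476, edgeR).

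CD + PE replicate 2 is in this comparison as well, and the calls changed without it. The median log2 fold change of the members became -0.025, with 18 positive, and the share of all genes called went to 7.25%. Igtp went from -1.59 to -0.29 (adjusted p = 0.473) and Iigp1 from -1.15 to -0.24 (adjusted p = 0.282). Stat2 was under the fold limit at -0.36 (adjusted p = 0.0184), Irf1 stayed called at -0.38 (adjusted p = 0.0497). Irf7 kept an adjusted p below 0.05 but not the fold, at -0.29 (adjusted p = 0.0328). Rsad2 and Trim30a, an inhibitor of Toll-like receptor signalling, were then called higher in MD + PE, at 0.77 (adjusted p = 0.0268) and 0.79 (adjusted p = 0.0116). Trim30a stood at 3.74, 8.68, 3.002, 4.22 and 3.95 CPM in CD + PE and 6.83, 5.39, 4.87, 7.69 and 7.36 CPM in MD + PE. Of the 12 macrophage markers 8 were then called higher in MD + PE, with a median of 0.95. Of the 64 other interferon-stimulated genes 9 were called higher and 2 lower. The part of the macrophages in these calls was not tested.

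The wider pathway held 4 called genes of 93 in MD + PE against CD + PE, beside 4.61% of all genes. Mov10 was lower at -0.66 ± 0.07 (SE, adjusted p = 6.2e-06), Ifitm3 at -0.49 ± 0.09 (SE, adjusted p = 0.00326) and Trex1, the exonuclease that removes cytosolic DNA, at -0.63 ± 0.17 (SE, adjusted p = 0.0346), while Ifi27l2b was higher at 2.33 ± 0.42 (SE, adjusted p = 0.00189). All 4 stayed past the threshold without CD + PE replicate 2. The receptors Ifnar1, Ifngr1, Ifngr2 and Il10rb were called in none of the comparisons, and Ifnlr1, for type III interferons, was under the filter.

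Whether PE acted differently on the diets was tested by the interaction. No member was called, as against 0.00735% of all genes (1 gene), and edgeR as well as DESeq2 gave 6 an unadjusted p below 0.05. The median interaction was -0.45 on the log2 scale over the members and -0.018 over all genes, and it was -0.18 without CD + PE replicate 2. For Igtp it was -1.91 ± 0.75 (SE, adjusted p = 0.462), and -0.60 (adjusted p = 0.595) without that library.

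The remaining members passed no test in any comparison. Ifih1 (MDA5), a sensor of double-stranded RNA, stood at 37.997, 36.7, 30.2 and 33.1 CPM in CD + Veh, 37.7, 40.6, 32.3, 39.8 and 28.8 CPM in CD + PE, 29.3, 28.4, 31.8, 32.1 and 37.4 CPM in MD + Veh, and 34.6, 31.2, 28.4, 29.5 and 33.9 CPM in MD + PE. Its groups overlapped throughout, and its partner Dhx58 (LGP2) lay between 8.40 and 14.2 CPM in all 19 libraries. Ifit3, which binds Ifit1 and RNA, stood at 14.6, 10.7, 8.92 and 10.2 CPM in CD + Veh, 10.1, 19.9, 11.2, 9.24 and 12.9 CPM in CD + PE, 13.4, 15.5, 16.4, 9.52 and 9.35 CPM in MD + Veh, and 11.7, 8.93, 12.7, 15.2 and 11.9 CPM in MD + PE, with overlap of all groups. The RNase L activating synthetase Oas1a stood at 5.16, 3.80, 3.62 and 3.50 CPM in CD + Veh, 2.24, 10.6, 2.83, 2.71 and 3.36 CPM in CD + PE, 4.82, 5.02, 4.50, 3.02 and 5.64 CPM in MD + Veh, and 4.71, 3.03, 2.26, 5.22 and 6.20 CPM in MD + PE. Oas3, of the same family, stood at 0.995, 0.645, 0.403 and 0.808 CPM in CD + Veh, 0.415, 2.54, 0.795, 0.803 and 0.395 CPM in CD + PE, 1.71, 1.11, 0.955, 1.70 and 1.004 CPM in MD + Veh, and 0.894, 1.01, 1.13, 1.99 and 1.08 CPM in MD + PE. CD + PE replicate 2 was the highest library of both, and their log2 fold changes in CD + PE against CD + Veh were 0.11 ± 0.38 (SE, adjusted p = 0.93) and 0.47 ± 0.47 (SE, adjusted p = 0.672), and -0.53 and -0.25 without it. Oasl1, which dampens Irf7 translation, stood at 13.4, 10.7, 11.3 and 10.6 CPM in CD + Veh, 12.1, 14.6, 9.27, 9.64 and 8.99 CPM in CD + PE, 14.1, 12.6, 14.7, 9.44 and 9.42 CPM in MD + Veh, and 13.1, 10.7, 8.61, 8.38 and 4.85 CPM in MD + PE. MD + PE replicate 5 was the lowest library of Oasl1 and MD + Veh replicate 3 the highest, while Ifit2, Ifit3b, Oasl2, Oas1g and Oas2 stayed at or under 14.7 CPM throughout. Ifi27, a mitochondrial protein gene, stood at 50.9, 61.5, 50.7 and 51.5 CPM in CD + Veh, 51.4, 66.7, 49.8, 73.3 and 48.1 CPM in CD + PE, 48.3, 52.5, 51.8, 67.2 and 54.4 CPM in MD + Veh, and 56.2, 39.2, 41.1, 38.9 and 57.1 CPM in MD + PE. In MD + PE 3 of 5 libraries lay below all libraries of the other groups. Parp14, a mono-ADP-ribosyltransferase, stood at 42.5, 36.7, 35.4 and 28.6 CPM in CD + Veh, 28.6, 54.8, 35.6, 37.5 and 34.5 CPM in CD + PE, 37.96, 35.2, 36.004, 30.7 and 29.8 CPM in MD + Veh, and 32.2, 31.7, 30.6, 33.7 and 31.4 CPM in MD + PE. The groups of Parp14 overlapped, and CD + PE replicate 2 was again the highest library. Usp18, the protease that removes Isg15 and brakes type I signalling, Mx1, Mx2, Rtp4, Ifi44, Ifi27l2a and Xaf1 stayed at or under 21.5 CPM in every library, and the groups compared overlapped for each of them.

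Some of these values rest on reads that near copies can share. Of the distinct 31-base stretches in the annotated transcripts, 61.6% in Oas1g, 58.05% in Ifit3b, 39.4% in Ifit3, 26.1% in Rtp4, 22.8% in Oas1a, 21.1% in Trim30a and 13.5% in Gbp7 also occur in another gene, so that the split of counts between them is uncertain. The values of Stat2, Irf1, Irf7, Rsad2 and Bst2 rest on transcripts with at most 1.65% of such stretches. Ifi27 and Ifi27l2a overlap on opposite strands. The libraries were stranded per the study's methods, and whether reads of either gene were counted for the other was not tested. Vehicle libraries carry the numbers 39 to 47 and PE libraries 48 to 57, so that PE and the order of the libraries cannot be told apart.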

How the data were processed

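Poly(A) RNA of 19 livers was sequenced, 1 library per mouse. Per the labels and the study's methods, the authors trimmed reads with fastp 0.23.4, quantified them with Salmon 1.10.3 against the GENCODE GRCm39 transcriptome and used tximport to go from transcripts to genes. The authors deposited estimated counts for each gene, as whole numbers without normalization. Totals ran from 10398820 to 15456729 per library.

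Counts were tested with edgeR 4.0.16 in R 4.3.3 (TMM, filterByExpr by group, quasi-likelihood test, 1 coefficient per group, all 19 libraries) over 13597 genes, with Benjamini-Hochberg adjustment over all of them. A gene was called at an adjusted p under 0.05 with a log2 fold change of 0.38 or more in either direction, the limits of the study's methods. DESeq2 1.42.0 was an alternative, with other scaling, filters, samples and covariates. The scripts were tested on simulated data. Tables and figures used Python 3.11.15, pandas 2.3.3 and matplotlib 3.10.9.

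The members, pathway lists and markers were chosen with earlier results of these data known. All 36 members are named. Values of every library were given for members called, for the 3 highest by mean CPM in each role and for those whose highest library was over 3 times the next of its group; pathway genes were named where called, besides the receptors. 1 gene of the pathway lists is not reported here. Isg15, Mx1, Trim30a, Tgtp1, Gbp6, Gbp10 and other genes given with values beyond that were chosen after their values were seen. Errors are SD over mice or SE. The SE was worked out from the edgeR test, as the absolute log2 fold change over the square root of its F statistic. The p-values judge a difference against the spread between these libraries.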

Additional observations from a re-analysis of the deposited data

Results flagged for a closer look

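In a group of 4 or 5 libraries, a value was taken up here when its gap to the nearest library, divided by the range of the group, exceeded Dixon's critical value. Of 196 groups examined, 144 of them of members, 39 held such a value, and chance flags about 1 in 20 groups.

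For the members there were 24 such values, 18 of them in CD + PE replicate 2, all high. They were Zbp1 (23.4 CPM), Irf1 (69.7 CPM), Irf7 (90.8 CPM), Ifit1 (13.7 CPM), Ifit3b (4.74 CPM), Oasl2 (14.7 CPM), Oas1a (10.6 CPM), Oas3 (2.54 CPM), Rsad2 (18.2 CPM), Bst2 (245 CPM), Rtp4 (21.5 CPM), Trim30a (8.68 CPM), Gbp2 (18.2 CPM), Gbp3 (33.4 CPM), Gbp7 (72.2 CPM), Iigp1 (1920.3 CPM), Igtp (268 CPM) and Irgm1 (160.0 CPM). The other 6 member values were Zbp1 in MD + Veh replicate 2 (8.36 CPM), Irf7 in MD + Veh replicate 5 (35.8 CPM), Oas2 in CD + Veh replicate 2 (1.86 CPM), Oas3 in MD + PE replicate 4 (1.99 CPM), Mx1 in MD + Veh replicate 4 (0.774 CPM) and Ifi27 in CD + Veh replicate 2 (61.5 CPM).

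Summed marker levels that stood apart in CD + PE replicate 2 were those of Kupffer cells and macrophages (999.98 CPM), monocytes (11.8 CPM), neutrophils (4.03 CPM), conventional dendritic cells (15.9 CPM), T and NK cells (12.5 CPM) and sinusoidal endothelium (306 CPM). In other libraries they were those of Kupffer cells and macrophages in CD + Veh replicate 2 (169 CPM), monocytes in CD + Veh replicate 3 (3.09 CPM), plasmacytoid dendritic cells in MD + Veh replicate 1 (50.5 CPM), plasmacytoid dendritic cells in MD + PE replicate 2 (18.8 CPM), stellate cells in MD + Veh replicate 1 (407 CPM), skeletal muscle in CD + Veh replicate 2 (34.2 CPM), skeletal muscle in MD + Veh replicate 1 (2884 CPM), skeletal muscle in CD + PE replicate 1 (392 CPM) and intestinal epithelium in MD + PE replicate 2 (237 CPM). The part of any of these in the interferon-stimulated genes was not tested.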

How the results depend on the processing

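The number of called members depended on single libraries and on the samples in the fit, and the cause was not tested. The share of all genes called moved as well. Without CD + PE replicate 2 it went from 2.92% to 3.01% for CD + PE against CD + Veh. For MD + Veh against CD + Veh it went from 10.4% to 12.1%, and for MD + PE against MD + Veh from 1.08% to 1.29%. For MD + PE against CD + PE it went from 4.61% to 7.25%. With DESeq2 the shares in that order were 2.0%, 6.06%, 1.16% and 3.04% of the 26185 genes with a fold change. They are not comparable with the edgeR shares, which are over 13597 genes. In number of genes DESeq2 called more in each of these comparisons. The numbers were 524 against 397, 1586 against 1410, 303 against 147 and 796 against 627. The share was not taken in the other settings. For CD + PE against CD + Veh the number of called members was 0, 2 with DESeq2, and 0 to 0 on leaving out each library. For MD + Veh against CD + Veh it was 1, 2 with DESeq2, 3 with only the groups compared, 2 with a covariate for library numbers above 45, and 1 to 3 on leaving out a library (3 without CD + PE replicate 2, 2 without MD + Veh replicate 4). For MD + PE against MD + Veh it was 0, and 0 to 1 on leaving out a library (1 without CD + PE replicate 2). For MD + PE against CD + PE it was 2, 4 with DESeq2 (Irf1, Stat2, Irf7 and Igtp), 3 with the stricter filter on low counts (Irf7 added), 0 with only the groups compared, and 1 to 5 on leaving out a library. It was 5 without CD + PE replicate 1 or 5, 3 without CD + PE replicate 2 or 4, and 1 without CD + Veh replicate 1 or 4 or MD + PE replicate 2, 3, 4 or 5. For the interaction it was 0 in each setting run. Gbp3 and Zbp1 in CD + PE against CD + Veh reversed without CD + PE replicate 2, to -0.19 and -0.035 (over all libraries left out, -0.19 to 0.82 and -0.035 to 1.23). Of 566 alternative values for 21 named log2 fold changes, 534 kept direction and call, 10 lost the call, 20 gained it and 2 reversed. In the main fit only Rsad2 in MD + Veh against CD + Veh, and Stat2 and Irf1 in MD + PE against CD + PE, were called. A kept call was thus mostly a gene that stayed uncalled, and it did not mean a kept size. Igtp in CD + PE against CD + Veh ranged from 0.17 to 1.75 on leaving out a library. The median ratio of 1.93 in CD + PE replicate 2 was 1.956 by edgeR's relative log expression (RLE) scaling and 2.12 by library totals.

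Replicate numbers are shared by the groups, but the libraries were not treated as paired: of 27 same-numbered pairs, 6 had a correlation of deviations above 0.1 (median 0.0293). With the replicate number as a block, called members were 0 for PE on either diet and for the interaction, 1 for MD + Veh against CD + Veh, and 1 (Stat2) for MD + PE against CD + PE, where Irf1 had -0.66 (adjusted p = 0.0573, edgeR).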
